A study of Mus musculus with 28 samples.

Results

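The enzymes of ubiquitin conjugation and removal were taken as the 108 of 23995 listed genes whose symbols begin with Ube2, Usp and a digit, Otub, Otud or Uchl. By role they comprised 30 conjugating enzymes (E2s) for ubiquitin, 4 E2s for ubiquitin-like proteins, 2 E2 variants without catalytic activity, and deubiquitinases, of which 55 were ubiquitin-specific proteases (USP), 10 carried an ovarian tumour (OTU) domain and 4 were ubiquitin C-terminal hydrolases (UCH). A further 3 (Ube2cbp, Uchl1os and Usp6nl) matched by symbol alone and belong to none of these classes.

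Ribosome-bound mRNA was isolated from C57BL/6 mice that combined the RiboTag knock-in with the Pax6-alpha-Cre transgene, in which Cre is active in the neural retina and switches on an HA tag on the ribosomal protein Rpl22. This Cre is not limited to RGCs among retinal cells. The superior colliculus (SC), a target of retinal ganglion cell (RGC) axons, was taken from Cre-positive mice and from Cre-negative littermates, and the retina from Cre-positive mice, at 4 stages, which were E17.5, P0.5, P7.5 and, last, Adult. Each of these 12 groups held 2 libraries, and each library came from several pooled eyes or SCs. The Cre-negative SC carried the RiboTag allele but no Cre, so that its libraries gave the background of the pulldown. A further 4 libraries came from adult Cre-positive SC and adult retina, each with and without in vitro ribosome run-off, in which ribosomes are allowed to finish translating while new initiation is blocked. The SC cDNA had more rounds of PCR than the retinal cDNA, so that source and amplification cannot be told apart. In these bulk samples fewer cells or axons of a type and less RNA in each cannot be told apart.

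Ubiquitin is activated by an E1 enzyme, passed to an E2 and joined to a target protein with the help of an E3 ligase. Deubiquitinases cut it off again and release new ubiquitin from its precursors. In axons this cycle sets the turnover of proteins far from the cell body, and loss of the neuronal hydrolase Uchl1 is known to cause degeneration of axon terminals.

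A pair of UCH members share much of their sequence. Uchl3 has 9 coding exons on chromosome 14 and Uchl4 has a single one on chromosome 9, and their coding sequences of 690 and 699 bases are identical at 672 of 690 aligned bases (97.4%). The 30 coding bases, 104 to 133 from the first base of the start codon, in which they differ most are printed 5′ to 3′ from the plus strand of mm10 (GRCm38), because reads that cross such bases can be assigned to 1 of the 2 genes. Capitals mark the differing bases, 4 of 30.
Uchl3, chr14:101665810-101665839: acggAatggagCctgaacttcttagcatGG
Uchl4, chr9:64235342-64235371: acggGatggagTctgaacttcttagcatCA
Of all stretches of 50 bases in the transcripts 26.7% of those of Uchl3 and 26.2% of those of Uchl4 occur in both genes, and values of the pair are uncertain to that extent.

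Levels are deposited FPKM values, in which fragments are scaled to transcript length and to the mapped total of the library. Genes that nearly every cell uses were also listed at 0 in many libraries, Gapdh in 18 of 24 and Ppia in 21 of 24, so a 0 is reported only as listed at 0. From the steps that single fragments leave in low values, the depth of 18 libraries was roughly estimated at 480000 to 13770000 fragments, with the E17.5 Cre-negative replicate 1 the lowest. No estimate could be made for the other 6, which included the 4 SC libraries of P0.5. The RGC marker list was detected in the P0.5 Cre-positive SC in 9 of 13 genes, with Rbpms, Pou4f3, Sncg and Thy1 listed at 0. Rbpms and Pou4f3 were also listed at 0 in the P7.5 and adult retina. The summed level of the list was 660.0 to 1112 FPKM, against 330.0 to 940.0 in the Cre-negative SC and 1233 to 4045 in the retina. The SC libraries are therefore named here by dissection and genotype.

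The most abundant members were present in every library, with or without Cre. Otub1, Usp22, Uchl1, Ube2h, Ube2e3 and Usp37 were above 0 in all 24 libraries, 6 of 108 members (5.56%) against 440 of 23991 genes (1.83%). Otub1 or Usp22 was the highest member in each library, and Otub1 made up between 21.7% and 84.6% of the members' summed FPKM. At the other end 18 members were listed at 0 in all 24 libraries. The Usp17l genes, Usp26 and the Y-linked Usp9y were among the 16 of these that had no read in the run-off libraries either.

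**Figure D1:**
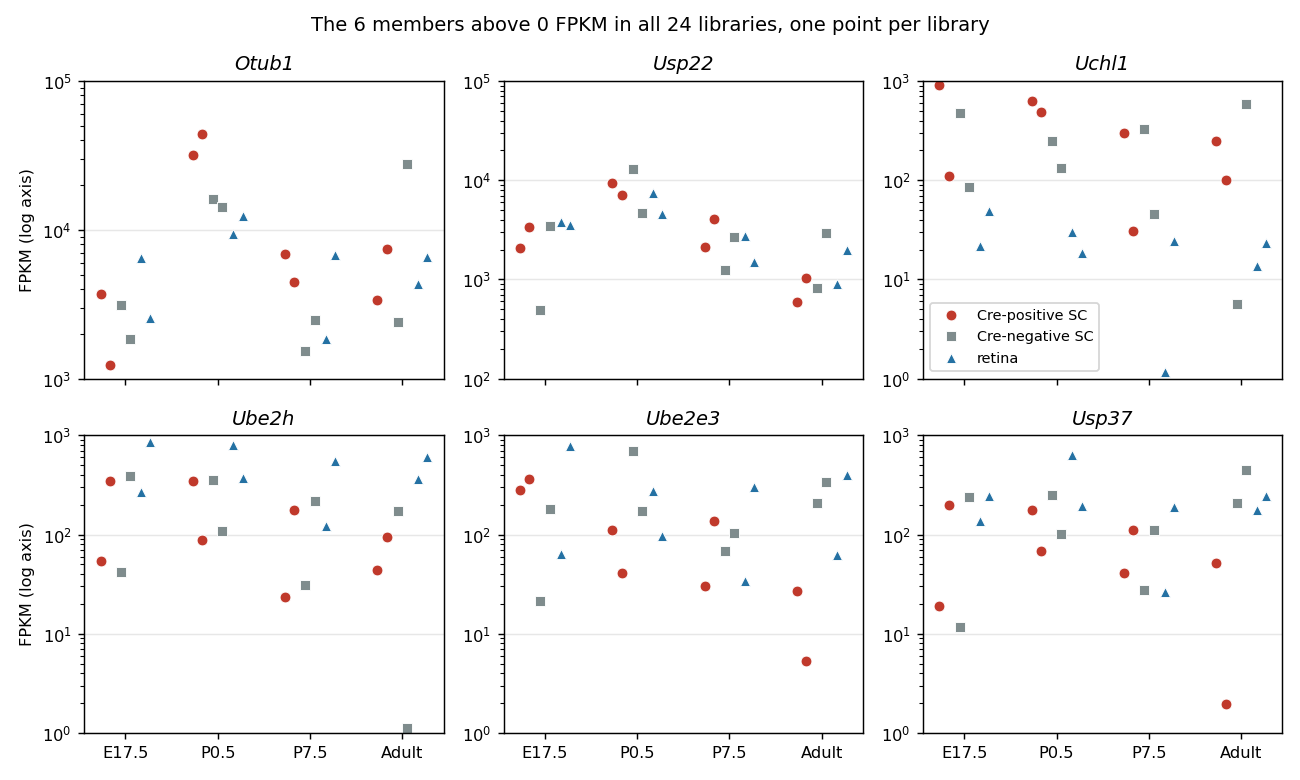
FPKM on a log axis of the 6 members above 0 in all 24 libraries, by stage, with 1 point per library (circles, Cre-positive SC; squares, Cre-negative SC; triangles, retina). Otub1 is highest in the P0.5 Cre-positive SC at 31641 and 44392 FPKM, and Uchl1 in the retina lies between 1.18 and 49.5 FPKM.

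Otub1, an OTU deubiquitinase selective for Lys48-linked chains that also restrains the E2 Ube2n, was among the most abundant mRNAs of the whole data set, with a rank between 1 and 35 among all genes (median 6). In the Cre-positive SC it measured 3676 and 1244 FPKM at E17.5, 31641 and 44392 at P0.5, 6870 and 4446 at P7.5, and 3352 and 7474 in the Adult. In the Cre-negative SC the values were 3111 and 1854, 16090 and 14233, 1529 and 2472, and 2391 and 27656, in the same order of stages. The retina gave 6486 and 2561, 9375 and 12458, 1845 and 6819, and 4350 and 6568. The P0.5 libraries were the highest of their source in the Cre-positive SC and in the retina, whereas in the Cre-negative SC an adult library was higher. At P0.5 and P7.5 both Cre-positive values lay above both Cre-negative values, and at E17.5 and in the Adult the groups overlapped. The other Otub gene, Otub2, reached 45.2 FPKM in an adult Cre-positive library and was listed at 0 in both P0.5 Cre-positive libraries.

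Usp22, which removes ubiquitin from histones as part of the SAGA complex, ranked between 6 and 97 among all genes. The Cre-positive SC held 2068 and 3405 FPKM at E17.5, 9323 and 7112 at P0.5, 2113 and 4055 at P7.5, and 591 and 1042 in the Adult. The Cre-negative SC spanned 490 to 12904 FPKM over its 8 libraries (median 2814), and the retina 909 to 7462 (median 3157). At every stage the Cre-positive and Cre-negative values of Usp22 overlapped. The lowest library was adult in the Cre-positive SC and in the retina, and an E17.5 library in the Cre-negative SC.

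Uchl1, a hydrolase so abundant in neurons that its protein serves as a neuronal marker, was high in the SC and low in the retina. In the Cre-positive SC it measured 920 and 111 FPKM at E17.5, 625 and 485 at P0.5, 296 and 30.5 at P7.5, and 247 and 101 in the Adult. The Cre-negative SC was similar, with 481 and 84.7, 246 and 134, 327 and 45.1, and 5.61 and 588. In the retina the values were 21.9 and 49.5, 29.9 and 18.6, 1.18 and 24.1, and 13.7 and 23.3. At each stage both Cre-positive SC values exceeded both retinal values, while the Cre-positive and Cre-negative values overlapped at every stage but P0.5. The gene lies at chr5:66676091-66687234 on the plus strand of mm10, and 295 of its exon bases overlap the antisense gene Uchl1os; the counting is not stated to use strand, so reads of the 2 genes cannot be told apart there. Uchl1os itself was listed at 0 throughout.

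Among E2s, Ube2h, the partner of the CTLH ligase complex, spanned 23.4 to 348 FPKM in the Cre-positive SC, 1.12 to 393 in the Cre-negative SC and 123 to 851 in the retina. Ube2e3 spanned 5.33 to 362 FPKM in the Cre-positive SC, 21.3 to 698 in the Cre-negative SC and 34.1 to 781 in the retina. The deubiquitinase Usp37, which acts on cyclin A, spanned 1.96 to 197 FPKM, 11.6 to 448 and 26.1 to 638 in the same sources. These ranges overlapped between all 3 sources. Usp48, a USP of the nucleus, was the only other member at 1 FPKM or more in all 8 Cre-positive SC libraries. It held 55.1 and 9.09 FPKM at E17.5, 57.2 and 22.1 at P0.5, 1.67 and 14.7 at P7.5, and 33.8 and 159 in the Adult. The Cre-negative SC held 12.9 and 15.1, 0 and 0.0302, 16.3 and 19.9, and 1.60 and 0 in the same order of stages. At P7.5 both Cre-negative values of Usp48 were thus the higher ones, and at E17.5 the groups overlapped. The retina held 0 to 5.81 FPKM.

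Some members were high in 1 library of a group and low or at 0 in the other. Ube2l6, the E2 for the interferon-induced modifier ISG15, reached 2165 FPKM in the adult Cre-negative replicate 2 and at most 1.89 in any other library. Ube2m, an E2 for NEDD8, was at 78.3 FPKM in one E17.5 Cre-positive library and 0.0939 in the other. Replicates of Usp2 in the adult Cre-negative SC were at 136 and 0 FPKM. For members at this level a group is not described by the mean of its 2 libraries.

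By class, 19 of 30 E2s for ubiquitin, 3 of 4 E2s for ubiquitin-like proteins, 1 of 2 E2 variants, 3 of 10 OTU, 4 of 4 UCH and 18 of 55 USP members reached 1 FPKM in at least 1 Cre-positive SC library. Several enzymes that act widely in cells were listed at 0 or at low values. Ube2n, the E2 for Lys63-linked chains that Otub1 restrains, was at most 0.0746 FPKM in the Cre-positive SC, 1.40 in the retina and 6.34 in the Cre-negative SC, the last in the shallow E17.5 replicate 1 alone. Ube2d3, a general E2, was listed at 0 in all 8 Cre-positive libraries. The proteasomal Usp14 and the X-linked Usp9x were at most 0.0394 and 0.288 FPKM in the Cre-positive SC, and neither reached 1 FPKM in any library.

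Usp29, an imprinted gene expressed from the paternal allele, spanned 0 to 46.1 FPKM in the Cre-positive SC, 0.488 to 200 in the Cre-negative SC and 0 to 2.22 in the retina. Of its exon bases 2582 overlap the antisense gene Zim3, so that reads of the 2 genes cannot be told apart there. Otud5 was at 3.43 and 5.32 FPKM in the P0.5 Cre-positive SC and at 8.07 and 2.02 in the Cre-negative SC. Both members thus had their Cre-positive values within or beside the range of the background libraries.

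More members were detected in the P0.5 Cre-positive SC than in any other group. At 1 FPKM or more in both libraries there were 11, 27, 7 and 8 members in the Cre-positive SC from E17.5 to Adult, 11, 9, 9 and 6 in the Cre-negative SC, and 10, 9, 6 and 9 in the retina. In every group the members' share was above that of all genes. It was 10.2% against 4.78% in the E17.5 Cre-positive SC and 5.56% against 2.15% in the adult Cre-negative SC. In the P0.5 retina it was 8.33% against 6.04%. The 27 members at P0.5 were 25.0% of the 108, against 14.9% of all genes. They comprised 9 E2s for ubiquitin, 2 E2s for ubiquitin-like proteins, 1 E2 variant, 2 OTU, 3 UCH and 10 USP members. Of these 27, 17 (63.0%) were listed at 0 in both Cre-negative libraries of the stage, against 48.0% of the 3566 genes detected in the same way; this set of genes was chosen after the values were seen. Genes above 0 numbered 4620 and 4923 in the P0.5 Cre-positive libraries and 2162 and 2546 in the Cre-negative ones, and the part of this difference in the members' count was not tested.

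**Figure D2:**
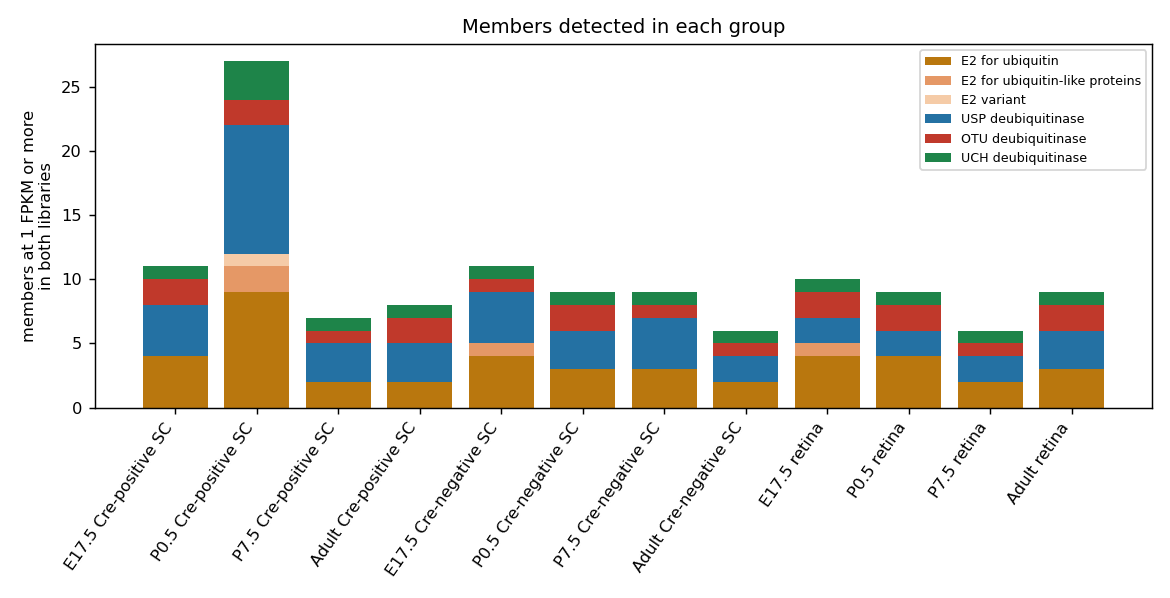
Number of the 108 members at 1 FPKM or more in both libraries of a group, stacked by class of enzyme. The P0.5 Cre-positive SC holds 27 members and every other group between 6 and 11.

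To ask which members depended on Cre, that is which mRNAs were bound to tagged ribosomes rather than carried in the background, Cre-positive and Cre-negative SC were compared with limma on log2(FPKM + 1), with p-values adjusted by Benjamini-Hochberg over all genes tested and 0.05 as the threshold. Differences on this scale depend on the added 1 where a group is listed at 0, and they are no fold changes. The fit held the 5983 genes at 1 FPKM or more in at least 2 of the 16 SC libraries. Of the 108 members 52 entered it, and 14 of those did so only through the P0.5 Cre-positive libraries, so that their being higher there follows in part from the filter. The p-values rest on a single spread per gene, pooled over all groups of the 16 SC libraries and not taken from the compared libraries alone. Groups listed at 0 in both libraries add no spread, which lowers the SE of genes high at P0.5 only.

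At P0.5, 13 members were higher and 1 was lower in the Cre-positive SC, 14 of 52 in all (26.9%). Over all genes tested 32.5% passed, 28.1% higher and 4.35% lower, so the members' share lay near that of all genes. The median difference was 0.36 over the members tested and 0.78 over all genes. Of the 13 members, 10 had entered the fit only through the 2 libraries in which they were high. These were Uchl3, Uchl5, Usp21, Usp4, Usp54, Ube2ql1, Ube2a, Ube2o, Ube2z and Ube2g2, and their p-values below follow in part from the filter. Ube2o, Ube2g2 and Usp54 were absent from the fits that left out 1 of those 2 libraries. Of the 13 members, 11 were listed at 0 in both Cre-negative libraries, and 8 were listed at 0 in the other 6 Cre-positive libraries. The call rested in part on single libraries, since without replicate 1 of the P0.5 Cre-positive SC 7 members passed.

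Among the 4 UCH members 2 rose. Uchl3, which also removes NEDD8, was at 66.5 and 33.4 FPKM in the Cre-positive SC and listed at 0 in both Cre-negative libraries, a log2 difference of 5.59 (SE 0.92, limma adjusted p = 0.000764). Uchl4, its near-copy, was at 1.04 and 0.996 FPKM in the same libraries and did not pass. Uchl5, a deubiquitinase of the proteasome, was at 4.70 and 2.89 FPKM against 0 and 0, a difference of 2.24 (SE 0.47, limma adjusted p = 0.0037) whose call was lost without replicate 1 of the Cre-positive SC. The groups were fully separated for both called genes.

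Of the USP members, 4 rose. Usp48 was at 57.2 and 22.1 FPKM against 0 and 0.0302, a log2 difference of 5.18 (SE 1.28, limma adjusted p = 0.0094), and lost the call when any 1 of the 4 libraries was left out. Usp21 was at 30.9 and 9.61 FPKM against 0 and 0 (4.20, SE 0.66, limma adjusted p = 0.000576). Usp4 was at 11.5 and 6.71 FPKM against 0 and 0 (3.30, SE 0.56, limma adjusted p = 0.000898). Usp54, with 5.57 and 1.25 FPKM against 0.257 and 0.12, had the smallest of the called differences (1.69, SE 0.40, limma adjusted p = 0.00806) and lost the call without replicate 2 of the Cre-negative SC and in a fit to the P0.5 libraries alone. In Usp54, 580 exon bases overlap the antisense gene 1810062O18Rik, and reads there cannot be told apart. Usp22, although far more abundant than these 4 members, did not separate the groups. No OTU member passed, including Otub1, for which the difference was 1.31 (SE 0.99, limma adjusted p = 0.434).

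Among E2s for ubiquitin 6 of 20 tested were higher. Ube2ql1, of the Ube2q family, was at 37.9 and 45.2 FPKM against 0 and 0, a difference of 5.41 (SE 0.80, limma adjusted p = 0.000352). Ube2a, a homologue of yeast Rad6 that acts in DNA repair, was at 23.6 and 15.8 FPKM against 0 and 0 (4.35, SE 0.56, limma adjusted p = 0.000124). Ube2o, a large enzyme that joins E2 and E3 activity, was at 22.1 and 15.2 FPKM against 0 and 0 and had the smallest p of the members (4.27, SE 0.38, limma adjusted p = 1.09e-05). These 3 were listed at 0 in every other Cre-positive SC library and entered the fit only through the P0.5 pair. Their p-values thus follow in part from the filter.

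Further called E2s for ubiquitin were lower in level. Ube2l3, which serves HECT ligases and parkin, was at 13.5 and 8.84 FPKM (3.58, SE 0.60, limma adjusted p = 0.000812); 1670 of its exon bases overlap Ydjc on the other strand, so that reads of the 2 genes cannot be told apart there. Ube2z, which receives ubiquitin from the E1 Uba6, was at 10.7 and 10.8 FPKM (3.56, SE 0.74, limma adjusted p = 0.00357), and Ube2g2, an E2 of endoplasmic reticulum-associated degradation, at 5.09 and 1.28 FPKM (1.90, SE 0.45, limma adjusted p = 0.00736), a call lost in the fit to the P0.5 libraries alone. All 3 were listed at 0 in both Cre-negative libraries. Of the exon bases of Ube2g2, 166 overlap Gm49325 on the same strand, and reads there cannot be told apart either.

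A single member was lower. Ube2s, which extends Lys11-linked chains with the anaphase-promoting complex, was at 0 and 3.35 FPKM in the Cre-positive SC and at 16.6 and 7.95 in the Cre-negative SC (−2.59, SE 0.81, limma adjusted p = 0.0324). The groups did not overlap, but the call was lost with a pseudocount of 0.1, without the filter, with the replicate block and in a fit to the P0.5 libraries alone. Of the exon bases of Ube2s, 183 overlap Rpl28 on the other strand, so that reads of the 2 genes cannot be told apart there.

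**Figure D3:**
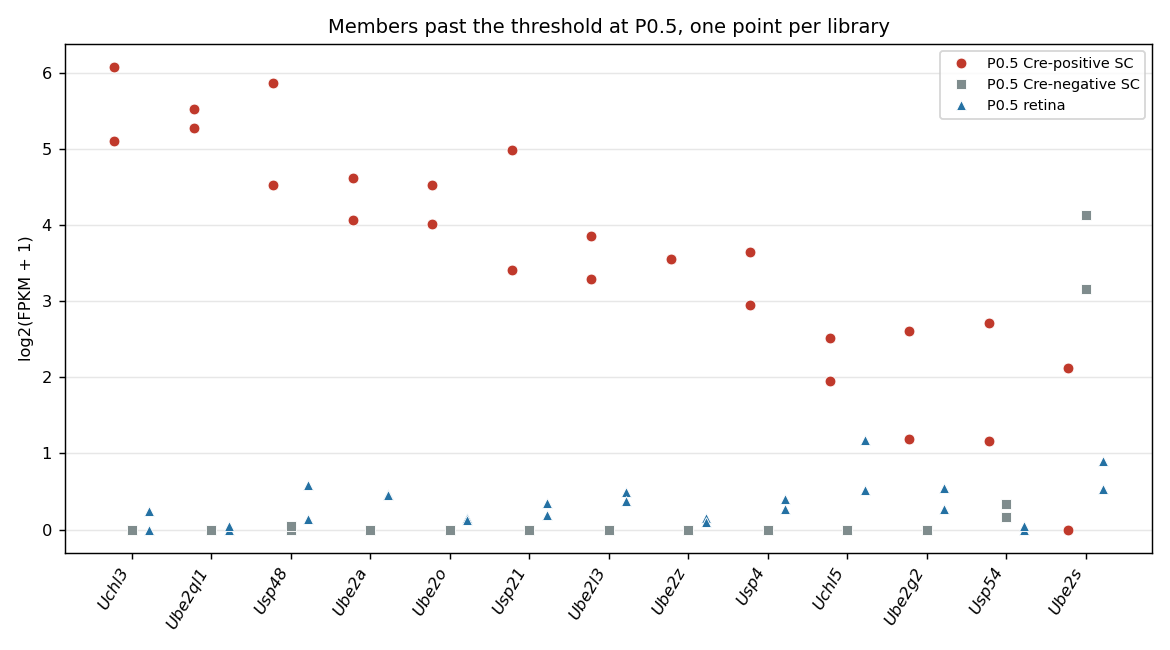
Level as log2(FPKM + 1) of 13 of the 14 members past the threshold at P0.5, with 1 point per library (circles, Cre-positive SC; squares, Cre-negative SC; triangles, retina). From Uchl3 to Usp54 both Cre-positive points lie above both Cre-negative points, which are at 0 for 10 of the genes, and for Ube2s both lie below.

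At the other stages no member passed. At E17.5 limma with Benjamini-Hochberg adjustment called 0 of 52 members, with 2 at an unadjusted p under 0.05, and 1.57% of all genes. The smallest p belonged to Ube2d1, a widely used E2, with 0.207 and 0.0619 FPKM in the Cre-positive and 7.70 and 24.6 in the Cre-negative SC (−3.72, limma adjusted p = 0.153). The difference of Ube2j2, −2.34 over all libraries, was −4.69 without replicate 2 of the E17.5 Cre-negative SC and 0.0185 without replicate 1. Leaving out replicate 2 keeps only the library of lowest estimated depth in that group. At P7.5 limma called 0 members, 0 at an unadjusted p under 0.05, and 0% of all genes. In the Adult limma called 0 members, 3 at an unadjusted p under 0.05, and 0.15% of all genes. The largest adult difference upward was that of Usp48, at 33.8 and 159 FPKM against 1.60 and 0 (5.53, SE 1.28, limma adjusted p = 0.302). Ube2e3 and Usp37 had the largest downward (−4.31, limma adjusted p = 0.866, and −4.63, limma adjusted p = 1).

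**Figure D4:**
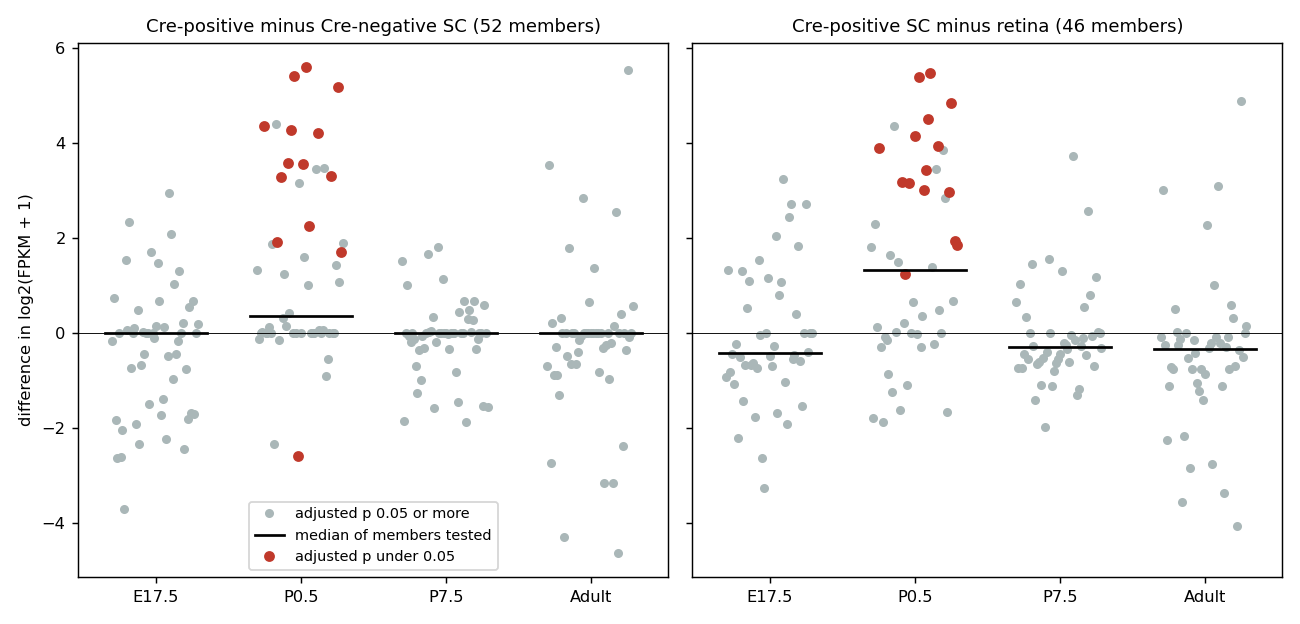
Difference in log2(FPKM + 1) of each member tested, by stage, for Cre-positive minus Cre-negative SC (left, 52 members) and Cre-positive SC minus retina (right, 46 members). Red points have a limma adjusted p under 0.05 and black bars are the medians of the members tested, and red points occur only at P0.5, 14 on the left and 15 on the right.

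The other genes of the pathway were tested in the same fit at P0.5. Of the precursors of ubiquitin and ubiquitin-like proteins 1 of 7 tested rose, Atg12, and of the E1 enzymes 1 of 4, Uba2, which activates SUMO (3.43 and 4.71). Of a list of deubiquitinases of other families and related genes 1 of 10 rose, Cops5 of the COP9 signalosome (3.74). Of 6 proteases for ubiquitin-like proteins Ufsp1, Senp5 and Senp3 rose and Ufsp2 fell. Of 14 HECT and neuronal E3 ligases 5 rose, among them Nedd4 (4.97), and of 16 cullin ligase genes 6 rose, among them Cul7 (6.10) and Fbxw7 (5.51), and Cul2 fell. These lists held 12, 9, 16, 9, 28 and 24 genes and their medians were 1.04, 3.38, 0.08, 0.95, 1.27 and 1.55, beside 0.78 over all genes. Over all genes tested 28.1% were higher and 4.35% lower, and nothing particular to a list is read from these counts. At P0.5 the summed level of 6 collicular neuron markers was 183 to 538 FPKM in the Cre-positive and 316 to 1134 in the Cre-negative SC, with Gad2, Slc32a1 and Lhx5 listed at 0 in both. Of these 6 markers 3 were above 0 in the Cre-positive SC and 1 in the Cre-negative SC. Tal1 and Pax7 were above 0 in the Cre-positive SC only, opposite to the sums. The summed level of 6 microglial markers was 0 in the Cre-positive and 43.2 to 77.0 in the Cre-negative SC, from 1 gene. The lists of retinal progenitors and cycling cells and of astrocytes went the other way, at 153 to 164 against 4.81 to 12.9 FPKM and at 51.9 to 60.8 against 15.9 to 38.3. Of the 7 progenitor and cycling markers 1 was above 0 in the Cre-positive SC, and Mki67 and Top2a, which mark cycling cells, were among those listed at 0 there. The part of these cells in the differences was not tested.

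Stages were then compared within the Cre-positive SC. These comparisons share the 2 P0.5 Cre-positive libraries with the one above. From E17.5 to P0.5, 12 members rose and 1 fell, against 26.9% of all genes passing, 25.1% upward and 1.81% downward, and the members' share was 25.0%. Otub1 was among them, from 3676 and 1244 to 31641 and 44392 FPKM (4.13, SE 0.99, limma adjusted p = 0.00937), with all P0.5 values above all E17.5 values. It kept the call in 1 of the 4 fits that left out a library. The Cre-negative libraries also went from 3111 and 1854 to 16090 and 14233, and the interaction of Cre with this step was 1.48 (SE 1.40, limma adjusted p = 0.552). Usp22 was separated in the same way but did not pass (1.62, SE 0.98, limma adjusted p = 0.291).

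Others that rose at this step were Uchl3, Uchl5, Usp21, Usp4, Usp54, Ube2ql1, Ube2a, Ube2o, Ube2l3 and Ube2g2. All of these but Ube2l3 had entered the fit only through the P0.5 Cre-positive libraries, so that their rise follows in part from the filter. Ube2r2, an E2 of the cullin-RING ligases, fell from 35.5 and 3.56 FPKM to 0 and 0 (−3.69, limma adjusted p = 0.0375). Its call was lost without the filter, without replicate 1 of E17.5 and without either P0.5 library. From P0.5 to P7.5, 12 members fell and none rose, against 29.8% of all genes passing, 29.2% of them downward. Uchl3, Ube2ql1, Ube2a, Ube2o and Usp21 went to 0 in both P7.5 libraries. Because they had entered only through the P0.5 Cre-positive libraries, their fall also follows in part from the filter. Otub1 fell short of the threshold at this step (−2.76, SE 0.99, limma adjusted p = 0.0597). From P7.5 to Adult limma called 0 members, 1 at an unadjusted p under 0.05, Usp48 (3.53), and 0.0836% of all genes. Without replicate 1 of the P0.5 Cre-positive SC the counts at the first and second step were 4 and 5, and without replicate 2 the first was 7.

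Whether the difference between Cre-positive and Cre-negative SC itself changed between stages was tested as an interaction. From E17.5 to P0.5 it rose for 10 members, against 23.9% of all genes. From P0.5 to P7.5 it fell for 11 and rose for 1, Ube2s, against 18.7% and 2.74%. From P7.5 to Adult limma called 0 members, 1 at an unadjusted p under 0.05, and 0% of all genes. Leaving out replicate 1 of the P0.5 Cre-positive SC left 4 of the first and 0 of the second, and leaving out its replicate 2 left 6 and 2.

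Cre-positive SC, which holds RGC axons, was compared with the retina, which holds their cell bodies together with all other retinal cells, over 6321 genes and 46 members. At P0.5, 15 members (32.6%) were higher in the SC and none lower, against 34.7% of all genes passing and 32.7% higher. Of the 46 members 10 had entered this fit only through the 2 P0.5 libraries of the SC, and 8 of those were among the 15, so that their being higher follows in part from the filter. The medians were 1.31 over the members tested and 1.10 over all genes. Uchl1 was one of them, at 625 and 485 FPKM in the SC and 29.9 and 18.6 in the retina (4.49, SE 1.44, limma adjusted p = 0.0309). The call was lost when any 1 of these 4 libraries was left out, without the filter and with the replicate block, and the Cre-negative SC of that stage held 246 and 134 FPKM.

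Among the others were Uchl3, Ube2ql1, Usp48, Ube2o, Usp21, Ube2a, Ube2z, Ube2l3, Ube2j2, Ube2v1, Usp4, Usp54 and Usp7. Uchl3 had the largest difference (5.47), with 0.186 and 0 FPKM in the retina, and Usp48 differed by 4.83 (limma adjusted p = 0.0264), with 0.503 and 0.0988 in the retina. The calls of Usp48 and Ube2l3 were also lost when any 1 of the 4 libraries was left out and without the filter, and that of Ube2a without replicate 1 of the SC. Without replicate 1 of the P0.5 Cre-positive SC 4 members passed, and without replicate 2 there were 8. Otub1 did not pass (1.79, SE 0.77, limma adjusted p = 0.0951).

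At E17.5 limma called 0 members between SC and retina, with 5 at an unadjusted p under 0.05, and 1.31% of all genes. At P7.5 it called 0 with 1 at an unadjusted p under 0.05, Uchl1 (3.71, limma adjusted p = 0.994), and 0.0158% of all genes. In the Adult it called 0 with 7 at an unadjusted p under 0.05, and 0.0949% of all genes. Among those 7 were Otud7b, an OTU deubiquitinase (−2.25, limma adjusted p = 0.211), and Usp48 (4.88, limma adjusted p = 0.325). Uchl1 differed by 3.24, 4.49, 3.71 and 3.08 from E17.5 to Adult, in the same direction at each stage.

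Within the retina limma called 0 of 28 members at each of the 3 steps between stages, with 1, 1 and 0 at an unadjusted p under 0.05, against 0%, 0.0735% and 0% of the 4080 genes tested. Otub1 showed the step with the smallest p after P0.5, from 9375 and 12458 FPKM to 1845 and 6819 (−1.61, limma adjusted p = 1). The median of all genes was −0.50 from E17.5 to P0.5 and 0.32 from P0.5 to P7.5, and moved to −0.12 and 0.03 when libraries were rescaled. For Ube2l3 the retina held 20.4 and 10.4 FPKM at E17.5 and 0.403 and 0.3 at P0.5 (−3.53), the largest step of a retinal member, which did not pass.

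In the adult, ribosome run-off asked which mRNAs leave the tagged ribosomes once these can complete translation. There was 1 library per condition, so that the read counts are compared as deposited and without a test, and intervals are exact 95% Poisson intervals. They cover counting error only, since the cDNA was amplified by PCR and carried no molecular identifiers, and 1 molecule can give several reads. Run-off libraries held 10.7% of the reads in the SC, 349395 against 3262914, and 6.72% in the retina, 315009 against 4686284.

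In the SC 50 of 108 members had a read, and 41 of them (82.0%) had fewer with run-off, against 84.9% of 5871 genes. No read was left for 25 of the 50, against 52.9% of all genes. In the retina 68 of 74 members (91.9%) had fewer, against 92.1% of 9464 genes, and 44 (59.5%) had none left, against 60.5%. The members as a group therefore lay near all genes in both sources. Pooled over members, 13.3% of the reads were left in the SC and 9.03% in the retina, against 10.7% and 6.72% of all reads. Relative to the library totals 35 of 50 members in the SC and 54 of 74 in the retina were lower, 70.0% and 73.0%, against 72.3% and 71.9% of all genes.

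**Figure D5:**
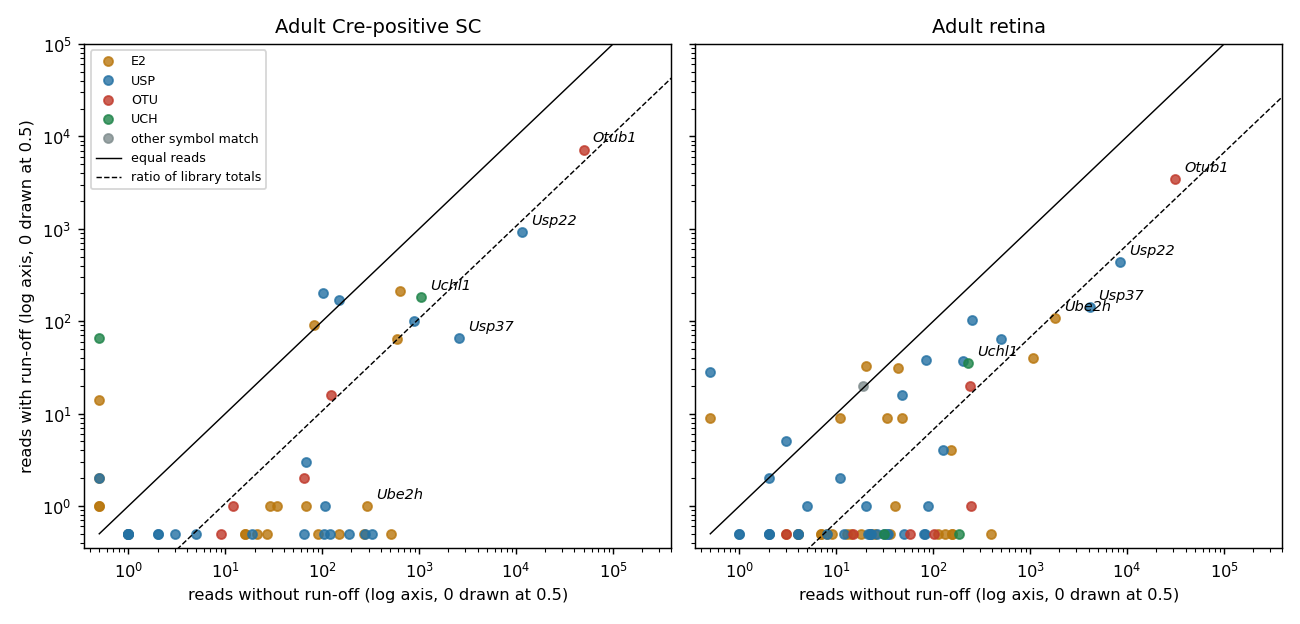
Reads of each member without and with run-off in adult Cre-positive SC (left) and adult retina (right), both axes log with 0 drawn at 0.5, coloured by class. Points below the solid line lost reads, 41 of 50 in the SC and 68 of 74 in the retina, and the dashed line is the ratio of the library totals, 10.7% and 6.72%.

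Otub1 had 49789 reads in the SC and kept 7207, or 14.5% (14.1 to 14.8), and in the retina it had 31453 and kept 3427, or 10.9% (10.5 to 11.3). Both lay above the share of all reads, so that its part of the library went from 1.53% to 2.06% in the SC and from 0.671% to 1.09% in the retina. Usp22 went from 11400 to 929 reads in the SC, 8.15% (7.61 to 8.71), and to 5.1% in the retina. Usp37 went from 2561 to 65, 2.54% (1.95 to 3.25), and from 4090 to 142 in the retina, 3.47%. Thus the 3 deubiquitinases with the most reads differed in the share left, in the same order in both sources.

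Uchl1 kept 181 of 1050 reads in the SC, 17.2% (14.6 to 20.2), and 35 of 226 in the retina, 15.5% (10.5 to 22.2). Usp48 kept 101 of 890 in the SC, 11.3%. Ube2b, the other Rad6 homologue, kept 212 of 629 in the SC, 33.7% (28.7 to 39.4), and 0 of 132 in the retina. Among the 10 members with the most reads in the SC it kept the largest share, while Ube2k and Usp29, with 511 and 325 reads, kept none and Ube2h kept 1 of 292. As a floor for a count of 0, 3 reads are worth 8.59 CPM in the SC run-off library and 9.52 CPM in the retinal one (CPM, reads scaled to the library total), and the exact interval of a count of 0 reaches 3.69 reads.

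In the retina Ube2l3 went from 397 reads to 0 and Otud7b from 244 to 1. Usp32 kept 102 of 249, 41.0% (32.2 to 51.8), whereas in the SC it went from 274 to 0. Ube2h and Ube2e3 kept 5.96% and 3.75% of 1795 and 1067 reads. A few members had more reads with run-off. In the SC these included Usp31, from 102 to 201, Usp20, from 150 to 170, and Uchl5, from 0 to 65, and in the retina Ube2o, from 20 to 33, and Usp1, from 0 to 28. For Usp20 and Ube2o the interval of the ratio included equality, and for Usp31 it did not (155% to 253%).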

How the data were processed

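The authors aligned reads to mm10 with TopHat 2.0.12, made FPKM values per gene with Cufflinks 2.2.1 and read counts per gene with HTSeq 0.6.1p1; the annotation and strand setting are not given in the sources used here. Deposited FPKM values were used for 24 libraries and deposited read counts for the 4 run-off libraries. The study tested counts with NOISeq; because FPKM were deposited, limma 3.58.1 (R 4.3.3, statmod 1.5.0) with trend and robust estimation was used here on log2(FPKM + 1). Separate fits held the 16 SC libraries, the 16 Cre-positive SC and retina libraries, and the 8 retina libraries, with genes at 1 FPKM or more in at least 2 libraries of a fit. P-values were adjusted by Benjamini-Hochberg over all genes of a fit.

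Members, lists and tests were chosen with earlier results of these data known. Named in each comparison were up to 10 called members of largest difference (for Cre at P0.5 all called members), the 3 of smallest p where none passed, Otub1 and Uchl1, and in the run-off libraries the 10 members with the most reads; the others named were chosen after their values were seen, as counts of 5 or fewer or for their levels. A member that counts include but the text does not name is not reported here. None of the 108 members had a missing entry; 4 genes that did were left out of the fits. Gene positions, overlaps and sequences came from GENCODE vM21 (GRCm38, as mm10), in which all 108 members matched by symbol; protein sequences were not used here. The fit was tested on simulated data for Cre at P0.5 over 5983 genes, of which 200 were changed: it recovered 1% of genes changed by 2 on the log2 scale and 50.5% of those changed by 5, with 0 and 6 false calls. Library depth was estimated from one-fragment steps where the estimate was stable, a limit chosen after seeing the estimates; 3 fragments on a 2 kb transcript are then worth 0.109 to 3.1 FPKM. Alternatives were a pseudocount of 0.1, no filter, rescaled libraries, a replicate block, fits to the libraries of 1 stage, leaving out each library, and for reads a minimum of 10 and library totals. Python 3.11.15, pandas 2.3.3, scipy 1.17.1 and matplotlib 3.10.9 were used.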

Additional observations from a re-analysis of the deposited data

Results flagged for a closer look

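For 22 interaction terms the limma adjusted p was under 0.05, so that the difference between Cre-positive and Cre-negative SC changed between neighbouring stages. All of them rest on the P0.5 libraries, and 10 of the 13 members called higher at P0.5 had entered the fit through its Cre-positive libraries alone. From E17.5 to P0.5 the difference in log2(FPKM + 1) rose by 7.33 for Uchl3, 6.90 for Ube2ql1, 5.18 for Usp21, 4.35 for Ube2a, 4.27 for Ube2o, 4.06 for Usp4, 3.57 for Ube2l3, 2.12 for Uchl5 and 1.90 for Ube2g2. The E17.5 Cre-negative replicate 1, of lowest estimated depth, held Uchl3, Ube2ql1 and Usp21 at 10.2, 6.96 and 2.90 FPKM. These genes were listed at 0 in the other E17.5 SC libraries, so that their terms include the values of that library. From P0.5 to P7.5 the change was −6.73 for Usp48, −5.59 for Uchl3, −5.41 for Ube2ql1, −4.47 for Ube2o, −4.41 for Ube2a, −4.20 for Usp21, −3.64 for Usp4, −3.58 for Ube2z, −3.25 for Ube2l3, −2.24 for Uchl5 and −1.97 for Ube2g2, and 3.71 for Ube2s. Of the 10 terms at the first step, 1 of which is not given here, 5 kept the call in every fit without a library in which they could be tested. At the second step this was examined for 11 of the 12 terms, all but that of Ube2g2, and only Ube2o kept the call. Ube2o was tested in 6 such fits, against 8 for the other terms examined at that step. Its level passed the filter through the P0.5 Cre-positive SC pair alone, so fits lacking a member of that pair did not hold it. Whether its call depends on a single library of that pair was therefore not tested, at this step or the first. With the replicate block and without the filter on low values the calls of Uchl5 and Ube2g2 at the first step and of Uchl5 and Ube2s at the second were lost.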

How the results depend on the processing

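The labels do not say that a replicate number marks a shared litter or day. The correlation of same-numbered deviations was 0.565, 0.427, 0.456 and 0.081 between Cre-positive and Cre-negative SC from E17.5 to Adult, and 0.15, 0.449, 0.526 and −0.0981 between Cre-positive SC and retina. Because it was not over 0.1 for every pair, the fits without the block were kept. With the replicate block 15 members were called for Cre at P0.5, all higher and 13 of them shared with the fit without it, 14 and 15 at the first and second stage step, 10 and 10 for the interactions and 15 for SC against retina at P0.5. Fitting the 4 libraries of a stage alone gave 25 members for SC against retina at P0.5 (22 higher, 3 lower), all 15 included. The counts of calls in this paragraph are given without the share over all genes, and nothing particular to the members is read from them. Leaving out single libraries, the comparison by Cre called 0 to 10 members at E17.5, 7 to 11 at P0.5, 0 at P7.5 and 0 to 2 for Adult. The steps between stages of the Cre-positive SC then gave 4 to 13, 5 to 12 and 0 to 1, the interactions 4 to 16, 0 to 9 and 0 to 1, SC against retina 0 to 4, 4 to 10, 0 to 1 and 0, and the retinal steps 0. The adult count of 2 arose without replicate 2 of either SC group. Of 972 single-member values under alternatives 817 kept direction and call, 140 lost the call, 5 gained it and 10 changed sign, all 10 on leaving out a library and among members without a call. Over the fits without single libraries the difference by Cre of Uchl1 lay between −0.86 and 2.18 at E17.5 (−0.58 without Cre-negative replicate 2), between −1.96 and 1.27 at P7.5 (1.07 without Cre-negative replicate 1), and between −1.89 and 4.59 for Adult. That of Otub1 lay between −0.95 and 0.61 at E17.5 (0.21 without Cre-negative replicate 1) and between −2.47 and 1.07 for Adult, that of Ube2j2 at E17.5 between −4.69, a call, and 0.0185, and that of Usp7 at P7.5 between −3.15 and 0.0366. The cause was not tested. By library totals, members with fewer reads after run-off numbered 35 of 50 in the SC and 54 of 74 in the retina. With 10 reads as the minimum they numbered 31 of 34 (91.2%) in the SC, against 96.6% of 4010 genes. In the retina they then numbered 51 of 53 (96.2%), against 97.3% of 6674 genes. With 2 libraries a group, differences of 2 on the log2 scale were rarely called in simulated data, and the depth of the P0.5 SC libraries is unknown.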
